A study of Homo sapiens with 6 samples.

Results

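The genes described here are 10 members of the TGF-beta and BMP signalling pathways, the SMAD genes SMAD2, SMAD3, SMAD4, SMAD6 and SMAD7, the receptor gene TGFBR2, the pseudoreceptor gene BAMBI and the target genes ID1, ID2 and ID3. They were taken by gene symbol from the 60240 genes of the deposited count table, and all 10 were found and had enough counts to be tested. The set was chosen by the measured fold change between LSD1 KO and WT libraries, in which SMAD7 was among the genes with the lowest values, together with its pathway partners. The difference between LSD1 KO and WT cells is therefore given for these genes as a description. Where calls of these genes in that contrast are listed, nothing is read from them. RNA-seq was performed on HCT116 cells, a human line of colorectal carcinoma cells, and the series holds 3 libraries of WT cells and 3 of cells in which LSD1 (KDM1A), a demethylase of histone H3K4, had been knocked out with CRISPR/Cas9. The knockout was directed at exon 1 of the gene by transient transfection and puromycin selection, after which individual clones were expanded. The study's methods describe its experiments in general as done with biological replicates. How many clones the 3 LSD1 KO libraries represent, and what a replicate was for these libraries, was not given in the sources used here, so p-values measure the spread between these libraries. Transfection and selection are described for the LSD1 KO cells only, and no other treatment is named for either group.

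Ligands of the TGF-beta family bind pairs of type I and type II serine/threonine kinase receptors, and the type I receptor then phosphorylates receptor-regulated SMAD proteins. SMAD2 and SMAD3 carry the TGF-beta and activin signal, SMAD1, SMAD5 and SMAD9 carry the BMP signal, and all of them act in the nucleus together with SMAD4. The inhibitory proteins SMAD6 and SMAD7 are themselves induced by the pathway and close a negative feedback loop. In the colon the TGF-beta branch restrains epithelial growth, the BMP branch favours differentiation towards the crypt surface, and both are often disabled in colorectal cancer. HCT116 cells are mismatch repair deficient and are known to carry inactivating mutations in TGFBR2, and the RNA level of TGFBR2 given below does not report on the function of its protein.

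Levels are given in CPM, the count of a gene scaled to the total of its library. The libraries held 25379279 to 29186963 counts, and a floor of 3 counts equals 0.103 to 0.118 CPM. KDM1A fell from 225.5 ± 14.0 CPM (SD, n = 3 libraries) in WT cells to 28.1 ± 1.93 CPM (SD, n = 3) in LSD1 KO cells, 12.5% of the WT mean (q value 0.000451, edgeR's quasi-likelihood test). Of 15 markers fixed for other cell types and for epithelium, 14 were matched. The 5 epithelial markers (EPCAM, KRT8, KRT18, KRT19 and CDH1) summed to between 2119 and 3628 CPM in WT and between 2414 and 2977 CPM in LSD1 KO libraries. The markers of fibroblasts, leukocytes and endothelium reached at most 1.27 CPM in any library, and LUM and CD3E had 0 counts throughout. Libraries with the same replicate number deviated together from the means of their groups. The correlation of these deviations across 17672 genes was 0.553, 0.553 and 0.404 for numbers 1, 2 and 3. It was between -0.516 and 0.0454 for WT and LSD1 KO libraries with different numbers. Deviations within a group sum to 0 for each gene, so positive values for same numbers force lower values for different numbers. On the values for same numbers, the libraries were also compared as same-numbered pairs.

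The promoters of both inhibitory SMAD genes and of ID1 and ID3 are printed. SMAD7 and ID3 were lower in LSD1 KO in every same-numbered pair, and SMAD6 and ID1 were not. Each sequence covers 250 bases before and 50 bases after the RefSeq start of the gene on GRCh38.p14, read 5′ to 3′ on the strand of the gene. Capitals mark, on either strand, the palindrome GTCTAGAC and the shorter CAGAC, both known as sequences bound by SMAD3 and SMAD4. GGCGCC, an element linked to BMP-regulated SMAD proteins, was searched as well. The windows lie at chr18:48950916-48951215 on the minus strand for SMAD7, chr15:66701986-66702285 on the plus strand for SMAD6, chr20:31605039-31605338 on the plus strand for ID1 and chr1:23559452-23559751 on the minus strand for ID3.
SMAD7 promoter: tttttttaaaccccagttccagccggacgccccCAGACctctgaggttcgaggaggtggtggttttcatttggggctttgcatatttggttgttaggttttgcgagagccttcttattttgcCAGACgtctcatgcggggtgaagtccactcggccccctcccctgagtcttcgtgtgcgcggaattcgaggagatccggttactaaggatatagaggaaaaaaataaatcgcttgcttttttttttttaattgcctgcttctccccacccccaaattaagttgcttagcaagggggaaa
SMAD6 promoter: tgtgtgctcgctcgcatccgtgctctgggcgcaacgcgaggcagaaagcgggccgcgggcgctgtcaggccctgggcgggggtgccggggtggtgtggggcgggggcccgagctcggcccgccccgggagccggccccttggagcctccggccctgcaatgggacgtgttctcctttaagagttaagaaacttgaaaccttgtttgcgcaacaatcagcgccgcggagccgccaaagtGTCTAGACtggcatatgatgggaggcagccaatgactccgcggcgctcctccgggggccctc
ID1 promoter: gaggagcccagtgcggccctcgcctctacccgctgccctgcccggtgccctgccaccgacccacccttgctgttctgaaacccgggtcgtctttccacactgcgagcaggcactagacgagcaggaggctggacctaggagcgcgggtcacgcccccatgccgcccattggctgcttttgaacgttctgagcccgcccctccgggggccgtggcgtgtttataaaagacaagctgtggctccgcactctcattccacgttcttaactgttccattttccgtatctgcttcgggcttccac
ID3 promoter: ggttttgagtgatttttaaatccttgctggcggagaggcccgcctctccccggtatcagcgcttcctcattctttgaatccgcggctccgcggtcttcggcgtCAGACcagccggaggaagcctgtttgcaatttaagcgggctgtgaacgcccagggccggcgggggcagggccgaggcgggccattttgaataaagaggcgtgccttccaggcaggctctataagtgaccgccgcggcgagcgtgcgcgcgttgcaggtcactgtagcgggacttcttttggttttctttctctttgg
GTCTAGAC was found once, in the SMAD6 window, among the 10 windows at the starts of the members, and in 0.202% of 35116 promoter windows of this length. CAGAC was found in 4 of the 10 windows (BAMBI, SMAD3, SMAD7 and ID3) and in 45.3% of all windows. GGCGCC was found in 4 of the 10 (BAMBI, SMAD2, SMAD3 and SMAD4) and in 19.2% of all windows. The ID1 window held none of these 3 sequences. Windows at other RefSeq starts of SMAD7, from 48949284 and from 48942758, held no GTCTAGAC either, and the first held 1 CAGAC. Each window covers 300 bases, so a sequence missing from it may lie elsewhere in the promoter.

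SMAD7 was the member with the largest difference between LSD1 KO and WT cells. SMAD7 (ENSG00000101665, chromosome 18 from 48919853 to 48950965 on GRCh38) encodes an inhibitory SMAD that brings ubiquitin ligases of the SMURF family to the activated receptor. Its expression was 1.65, 4.05 and 4.87 CPM in WT replicates 1, 2 and 3, from 42, 112 and 142 counts. In LSD1 KO replicates 1, 2 and 3 it was 0.0717, 0.908 and 0.537 CPM, from 2, 26 and 14 counts. Every LSD1 KO library lay below every WT library, and the closest libraries across the groups were WT replicate 1 and LSD1 KO replicate 2. The LSD1 KO mean was 14.4% of the WT mean. Within same-numbered pairs the WT library held 23.1 times (95% exact interval 6.002 to 196.8) as much SMAD7 RNA as the LSD1 KO library in pair 1, 4.46 times (2.89 to 7.12) in pair 2 and 9.05 times (5.22 to 17.0) in pair 3. These intervals cover counting error only. The width of the first comes from the 2 counts in LSD1 KO replicate 1, which lie below the floor of 3 counts. The log2 fold change fitted by edgeR was -2.75 (standard error 0.74) without the replicate number in the model and -2.90 (standard error 0.40) with it, and it was -3.56 without LSD1 KO replicate 2. With the replicate number in the model, 4 of the 17672 genes tested had a lower log2 fold change than SMAD7. The set was chosen by this difference, so the low place of SMAD7 follows from the choice.

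**Figure D1:**
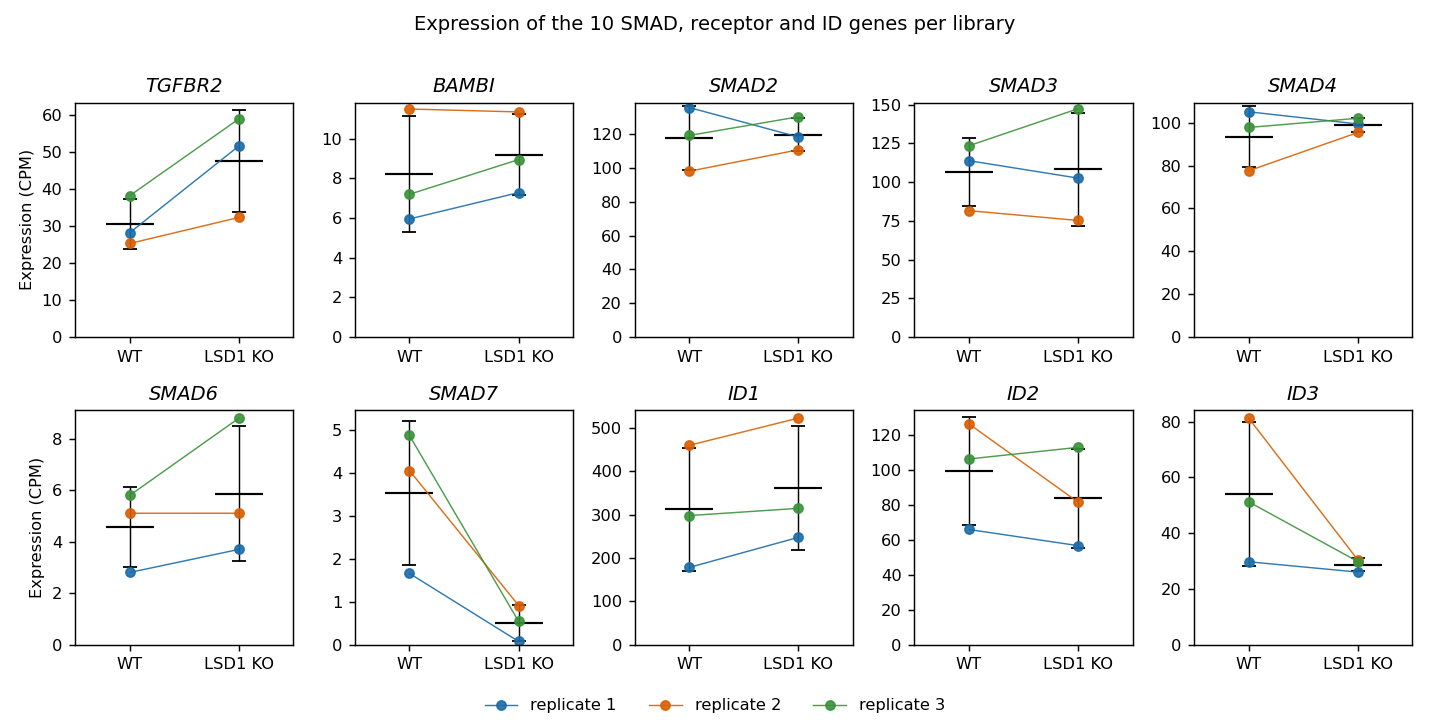
Expression in CPM (vertical axis, linear from 0) of each of the 10 genes in WT and LSD1 KO libraries; points are libraries, lines join libraries with the same replicate number, and black bars give the mean and SD of 3 libraries. SMAD7 has all LSD1 KO libraries, at 0.0717 to 0.908 CPM, below all WT libraries, at 1.65 to 4.87 CPM, and the groups overlap in the other panels.

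SMAD6, the other inhibitory SMAD and the one that acts mainly on BMP signalling, did not share the difference seen for SMAD7. SMAD6 (ENSG00000137834, chromosome 15 from 66702236 to 66782849) was at 2.80, 5.10 and 5.79 CPM in WT replicates 1, 2 and 3 and at 3.69, 5.10 and 8.79 CPM in LSD1 KO replicates 1, 2 and 3. The groups overlapped, and SMAD6 was higher in LSD1 KO in pairs 1 and 3 and at the same level in pair 2, with log2 differences of 0.40, 0.00021 and 0.60. SMAD6 and SMAD7 were read at close to equal depth in WT cells, with 1.69, 1.26 and 1.19 SMAD6 counts for each SMAD7 count in replicates 1, 2 and 3. In LSD1 KO replicates 1, 2 and 3 there were 51.5, 5.62 and 16.4 SMAD6 counts for each SMAD7 count. The value of 51.5 rests on 2 SMAD7 counts, below the floor of 3 counts, and its size is uncertain. The ratio of SMAD6 to SMAD7 counts is taken within a library and does not depend on the scaling of libraries.

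The RNA levels of SMAD2, SMAD3 and SMAD4, whose proteins carry the TGF-beta signal, overlapped between the groups. SMAD2 (ENSG00000175387), a receptor-regulated SMAD of the TGF-beta branch, was at 135.7, 98.0 and 119.2 CPM in WT replicates 1, 2 and 3 and at 118.3, 110.7 and 130.2 CPM in LSD1 KO replicates 1, 2 and 3. SMAD3 (ENSG00000166949), its partner in the same branch, was at 113.8, 81.6 and 123.5 CPM in WT and at 102.6, 75.2 and 147.4 CPM in LSD1 KO replicates 1, 2 and 3. SMAD4 (ENSG00000141646), the SMAD shared by both branches, was at 105.1, 77.5 and 97.8 CPM in WT and at 99.4, 95.4 and 102.1 CPM in LSD1 KO replicates 1, 2 and 3. None of these 3 genes had the same direction in all pairs. The log2 fold changes with the replicate number in the model were 0.067 (standard error 0.098) for SMAD2, 0.029 (standard error 0.10) for SMAD3 and 0.13 (standard error 0.096) for SMAD4. SMAD4 was also the steadiest member among the LSD1 KO libraries, where the highest was 1.07-fold the lowest, whereas the highest SMAD3 library was 1.96-fold the lowest.

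At the cell surface, TGFBR2 was higher in LSD1 KO cells in each pair, and BAMBI was not. TGFBR2 (ENSG00000163513, chromosome 3 from 30606356 to 30694142) encodes the type II receptor that binds TGF-beta. Its expression was 28.1, 25.2 and 38.1 CPM in WT replicates 1, 2 and 3 and 51.6, 32.3 and 58.9 CPM in LSD1 KO replicates 1, 2 and 3. Replicate 2 of LSD1 KO lay below replicate 3 of WT, so the groups overlapped, while the log2 differences within pairs were 0.87, 0.35 and 0.63. The fitted log2 fold change was 0.67 (standard error 0.24) without the replicate number and 0.65 (standard error 0.12) with it. BAMBI (ENSG00000095739, chromosome 10 from 28677521 to 28682932) encodes a transmembrane protein that resembles a type I receptor but lacks the kinase domain and blocks signalling. BAMBI was at 5.95, 11.5 and 7.19 CPM in WT and at 7.28, 11.3 and 8.94 CPM in LSD1 KO replicates 1, 2 and 3, with log2 differences of 0.29, -0.019 and 0.31 within pairs.

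The ID genes encode helix-loop-helix proteins without a DNA-binding domain, which hold back the E proteins, and they are direct targets of BMP signalling in many cell types. In LSD1 KO cells ID3 was lower in every pair, whereas ID1 was slightly higher and ID2 had no common direction. ID3 (ENSG00000117318, chromosome 1 from 23557926 to 23559501) was at 29.7, 81.3 and 51.2 CPM in WT replicates 1, 2 and 3 and at 26.0, 30.3 and 29.8 CPM in LSD1 KO replicates 1, 2 and 3. The WT libraries spread over 2.74-fold and the LSD1 KO libraries over 1.17-fold, and WT replicate 1 lay within the range of the LSD1 KO libraries. The log2 differences within pairs were -0.19, -1.42 and -0.78, and the fitted log2 fold change with the replicate number was -0.78 (standard error 0.21). ID1 (ENSG00000125968, chromosome 20 from 31605289 to 31606510) was at 178.0, 460.0 and 297.8 CPM in WT replicates 1, 2 and 3 and at 247.5, 523.0 and 314.5 CPM in LSD1 KO replicates 1, 2 and 3. The log2 differences of ID1 within pairs were 0.48, 0.19 and 0.079. ID2 (ENSG00000115738, chromosome 2 from 8682056 to 8684461) was at 65.9, 126.5 and 106.3 CPM in WT and at 56.7, 81.6 and 113.0 CPM in LSD1 KO replicates 1, 2 and 3, with log2 differences of -0.22, -0.63 and 0.088 within pairs.

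**Figure D2:**
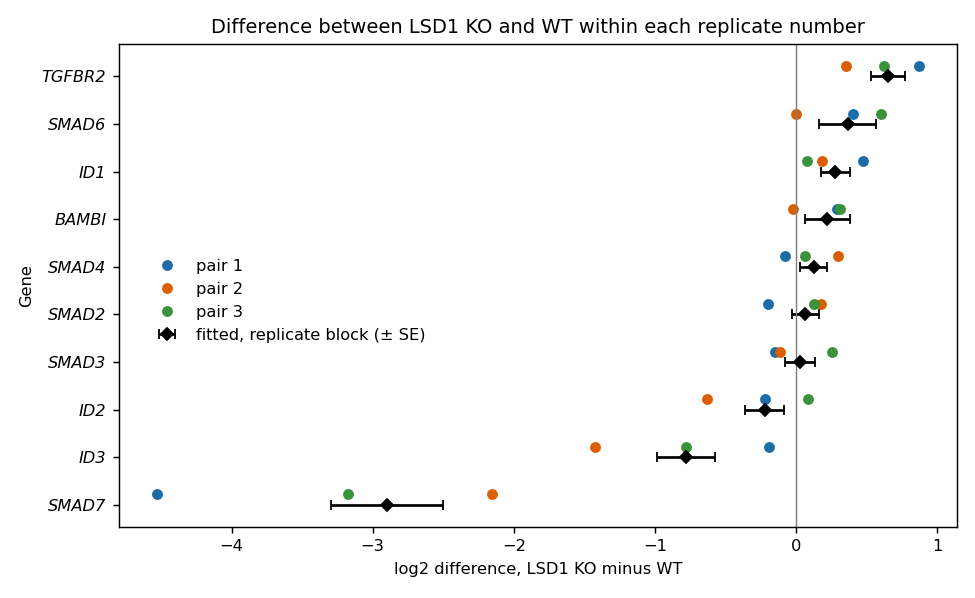
Log2 difference between the LSD1 KO and the WT library with the same replicate number (coloured points, horizontal axis) for each of the 10 genes (vertical axis), with the log2 fold change fitted by edgeR with the replicate number in the model and its standard error (black diamonds and bars). SMAD7 lies at -4.53, -2.16 and -3.18 in pairs 1, 2 and 3, ID3 at -0.19, -1.42 and -0.78, and TGFBR2 at 0.87, 0.35 and 0.63. The value of SMAD7 in pair 1 rests on 2 counts in LSD1 KO replicate 1, below the floor of 3 counts.

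The 3 ID genes kept closer proportions to each other in WT than in LSD1 KO libraries. In WT replicates 1, 2 and 3 there were 5.99, 5.66 and 5.81 ID1 counts for each ID3 count, although the level of each gene differed over 2-fold between these libraries. In LSD1 KO replicates 1, 2 and 3 there were 9.52, 17.2 and 10.6 ID1 counts for each ID3 count, so every LSD1 KO library was above every WT library. The ratio of ID1 to ID2 counts was between 2.70 and 3.64 in WT and between 2.78 and 6.41 in LSD1 KO libraries, with overlap. The ratio of ID2 to ID3 counts was between 1.56 and 2.22 in WT and between 2.18 and 3.79 in LSD1 KO libraries, also with overlap. These ratios were chosen after the values had been seen and were not tested.

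In the contrast of LSD1 KO with WT, 0 of the 10 members had a q value under 0.1 in edgeR without the replicate number (0.00566% of the genes tested had one, a single gene, and 3 members had an unadjusted p under 0.05, as did 3.12% of all genes). With the replicate number as a block, TGFBR2 was called as higher and SMAD7 as lower (2 of 10, with 1.60% of all genes, 1.05% higher and 0.549% lower). DESeq2's Wald test called SMAD7 alone, as lower (1 of 10, with 0.376% of all genes called and 0.150% lower). DESeq2 with the block called TGFBR2 as higher and SMAD7 and ID3 as lower (3 of 10, with 4.21% of all genes, 2.53% higher and 1.68% lower). SMAD7 was also the 1 member of 10 whose groups did not overlap, as was the case for 7.72% of the genes tested, 4.43% with LSD1 KO below and 3.29% with LSD1 KO above. Because this contrast was in view when the members were chosen, these counts describe the set and nothing is read from them. The counts of 5 members were not fully separable from other genes. Of the 31-base sequences in their transcripts, 8.04% occur elsewhere for ID2, among them in the opposite-strand gene ID2-AS1, 6.58% for SMAD4, 5.94% for SMAD2, 1.62% for SMAD3 and 0.804% for TGFBR2, while none do for SMAD6, SMAD7, BAMBI, ID1 and ID3.

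Levels of the members were compared with each other per length, as CPM per kilobase of the canonical transcript, on WT libraries. ID1 was highest at 317.3 ± 144.0 CPM per kilobase (SD, n = 3), followed by ID2 at 76.7 ± 23.7 and ID3 at 56.9 ± 27.3, and the WT ranges of ID2 and ID3 overlapped. SMAD3 came next at 16.4 ± 3.40 CPM per kilobase, then SMAD4 at 10.7 ± 1.63, and both were separate from their neighbours in the order. TGFBR2 at 6.73 ± 1.49 CPM per kilobase overlapped with BAMBI at 4.86 ± 1.72, and BAMBI overlapped with SMAD2 at 3.40 ± 0.55. SMAD2 did not overlap with SMAD6, the next in the order. SMAD2 takes its low place from a canonical transcript of 34626 bases, and its place would rise with a shorter one. The inhibitory genes SMAD6, at 1.19 ± 0.41, and SMAD7, at 1.05 ± 0.50 CPM per kilobase, were lowest and overlapped. In LSD1 KO cells SMAD7 was at 0.151 ± 0.125 CPM per kilobase and SMAD6 at 1.53 ± 0.69, and these ranges did not overlap.

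The replicate numbers offered a comparison that played no part in the choice of the members. Differences between numbers 1, 2 and 3 were tested over both groups together with edgeR's quasi-likelihood test in a model with the group, and 8 of the 10 members had a q value under 0.1, where 41.2% of the genes tested had one. The exceptions were SMAD2 (q value 0.435) and SMAD4 (q value 0.587). ID1 had the lowest q value among the members, 0.00223, and was 1.32 higher on the log2 scale in number 2 than in number 1. Both groups ran in the same order for ID1, with 178.0, 297.8 and 460.0 CPM in WT and 247.5, 314.5 and 523.0 CPM in LSD1 KO for numbers 1, 3 and 2. Number 1 was the lowest in both groups for BAMBI, SMAD6, SMAD7, ID1, ID2 and ID3, all of which passed the test (q values from 0.00223 for ID1 to 0.0524 for ID3). Over all genes, 16.1% had a q value under 0.1 with number 1 lowest. For SMAD7, numbers 2 and 3 were 2.01 and 1.74 higher than number 1 on the log2 scale (q value 0.0345), which is in size below the fitted difference between LSD1 KO and WT. TGFBR2 (q value 0.0375) and SMAD3 (q value 0.0159) followed another order, lowest in number 2 and highest in number 3 in both groups. The count of members with a q value under 0.1 was 8 with DESeq2's likelihood ratio test, which called 39.0% of all genes, and between 5 and 8 when 1 library at a time was left out, with 5 without LSD1 KO replicate 3. What the numbers stand for is not given in the sources used here.

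**Figure D3:**
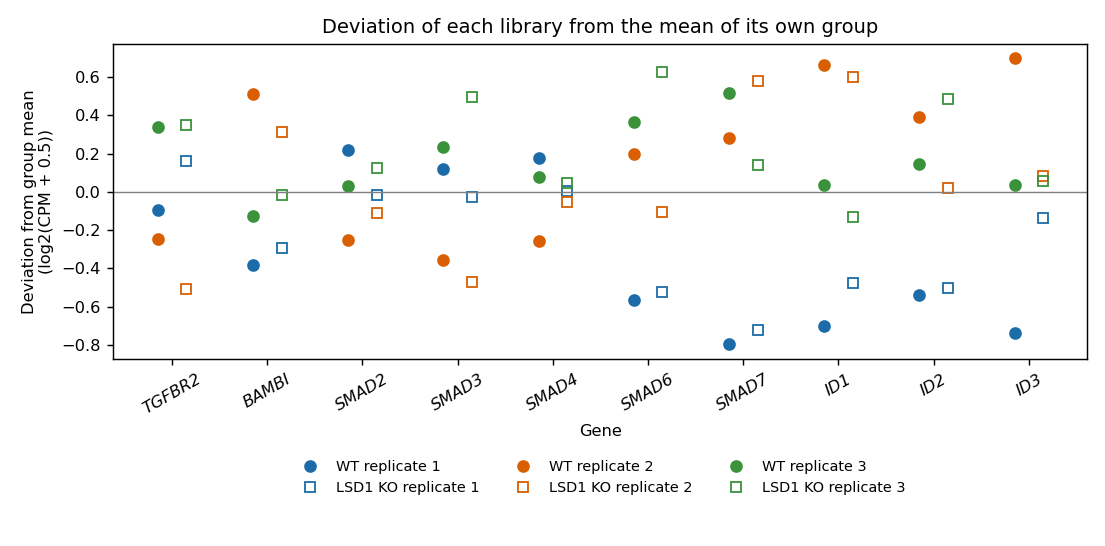
Deviation of each library from the mean of its own group (vertical axis, log2(CPM + 0.5)) for the 10 genes (horizontal axis), with filled circles for WT, open squares for LSD1 KO and 1 colour for each replicate number. The replicate 1 libraries of both groups lie lowest for BAMBI, SMAD6, SMAD7, ID1, ID2 and ID3, and the LSD1 KO libraries of ID3 and SMAD4 lie close together.

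To place the members in their pathway, 133 further genes were listed by role, and 97 of them were expressed highly enough to be tested. The lists were drawn up with earlier results of these data known. The counts of called genes therefore describe the lists, and nothing is read from their shares. The groups did not overlap for 7 of the 97 (7.22%), as was the case for 7.72% of all genes tested. Without the replicate number 0 of the 97 had a q value under 0.1 in edgeR, 8 of the 97 had an unadjusted p under 0.05 where 3.12% of all genes did, and DESeq2's Wald test called 3 of the 133 where it called 0.376% of all genes. With the replicate number as a block, 5 genes rose and 1 fell in LSD1 KO cells (6 of 97, with 1.60% of all genes tested), and the median log2 fold change of the 97 was 0.078 where that of all genes was 0.0030. PMEPA1, GDF15, COL1A1, MSX2 and RUNX2 rose and MSX1 fell. The numbers given for these genes come from the fit with the block, and each gene was tested in 16 other fits, 10 without the block and 6 with it. GDF15 and PMEPA1 also passed in 2 of the 10 without the block, DESeq2's Wald test and edgeR without a filter on low counts. The calls of COL1A1, MSX1, MSX2 and RUNX2 were made in 0 of those 10. For each of the 6 genes the lowest q value came from edgeR with the block and no filter, a setting that called 1285 genes.

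PMEPA1 (ENSG00000124225), a TGF-beta target that binds receptor-regulated SMAD proteins and dampens the signal, had the largest change among the intracellular regulators. It rose from 0.158, 1.23 and 0.548 CPM in WT replicates 1, 2 and 3 to 1.26, 3.88 and 4.57 CPM in LSD1 KO replicates 1, 2 and 3, which is 2.45 ± 0.38 on the log2 scale (± standard error, edgeR q value 0.0312). Every LSD1 KO library was above every WT library, although the highest WT library and the lowest LSD1 KO library were close, with 34 and 35 counts. PMEPA1 had a q value under 0.1 in 8 of the 16 other fits, with values from 7.73e-11 to 1.00. The other 26 intracellular regulators were not called with the block. Among them SMURF2, a ubiquitin ligase that SMAD7 recruits, was at 247.4 ± 34.5 CPM in WT and 302.5 ± 29.3 CPM in LSD1 KO (SD, n = 3 each, log2 fold change 0.33, q value 0.171 from edgeR with the block). STRAP, a protein that stabilizes SMAD7 at the receptor, was at 213.6 ± 25.2 CPM in WT and 198.5 ± 12.6 CPM in LSD1 KO. Of the receptor-regulated SMAD genes of the BMP branch, SMAD1 was at 21.4 ± 4.12 CPM in WT and 17.4 ± 5.02 CPM in LSD1 KO, and SMAD9 at 4.91 ± 1.03 and 3.75 ± 0.53 CPM. Both were lower in LSD1 KO in 3 of 3 pairs with overlapping groups, and neither passed the test (q values 0.403 and 0.492 from edgeR with the block). SMAD5 was at 106.6 ± 13.2 CPM in WT and 110.3 ± 14.0 CPM in LSD1 KO. The median log2 fold change of the 27 was 0.051.

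Of 15 ligands tested, GDF15, a stress-induced cytokine of the family, rose, and 0 fell. GDF15 (ENSG00000130513) was at 84.2, 127.2 and 93.8 CPM in WT replicates 1, 2 and 3 and at 192.2, 156.6 and 282.6 CPM in LSD1 KO replicates 1, 2 and 3, with no overlap, and its log2 fold change was 1.06 (standard error 0.21, q value 0.0805 from edgeR). It passed in 7 of the 16 other fits, with q values from 4.47e-21 to 1.00. DESeq2 with the block was not among these 7 (q value 0.105). BMP4, a ligand of the BMP branch, was at 73.9 ± 7.38 CPM in WT and 113.9 ± 29.7 CPM in LSD1 KO (log2 fold change 0.63, q value 0.101 from edgeR with the block). BMP5, another BMP ligand, had too few counts for edgeR's filter, with 6, 26 and 10 counts in the WT libraries and 0 in each LSD1 KO library. It was at least 14.1-fold lower in LSD1 KO, with 3 counts over the group as the floor (q value 0.033 from DESeq2's Wald test). The ligands had a median log2 fold change of -0.12.

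The 13 receptors held no called gene in these fits (0 of 13 in edgeR with or without the block, 0 with an unadjusted p under 0.05 without it, 0 with DESeq2). TGFBR1, the type I partner of TGFBR2, was at 51.5 ± 6.42 CPM in WT and 53.8 ± 10.8 CPM in LSD1 KO, and BMPR1A, a type I BMP receptor, was at 56.8 ± 12.4 and 52.0 ± 7.30 CPM. Their log2 fold changes were 0.082 (standard error 0.11) and -0.083 (standard error 0.091), and over the 13 receptors they ran from -0.21 to 0.49. The 15 extracellular regulators likewise held 0 called genes in both edgeR fits, 0 with an unadjusted p under 0.05 and 0 with DESeq2. Their most abundant members were the latent TGF-beta binding proteins LTBP4, at 305.5 ± 58.1 CPM in WT and 367.7 ± 60.3 CPM in LSD1 KO, and LTBP3, at 185.7 ± 51.0 and 207.2 ± 28.3 CPM.

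**Figure D4:**
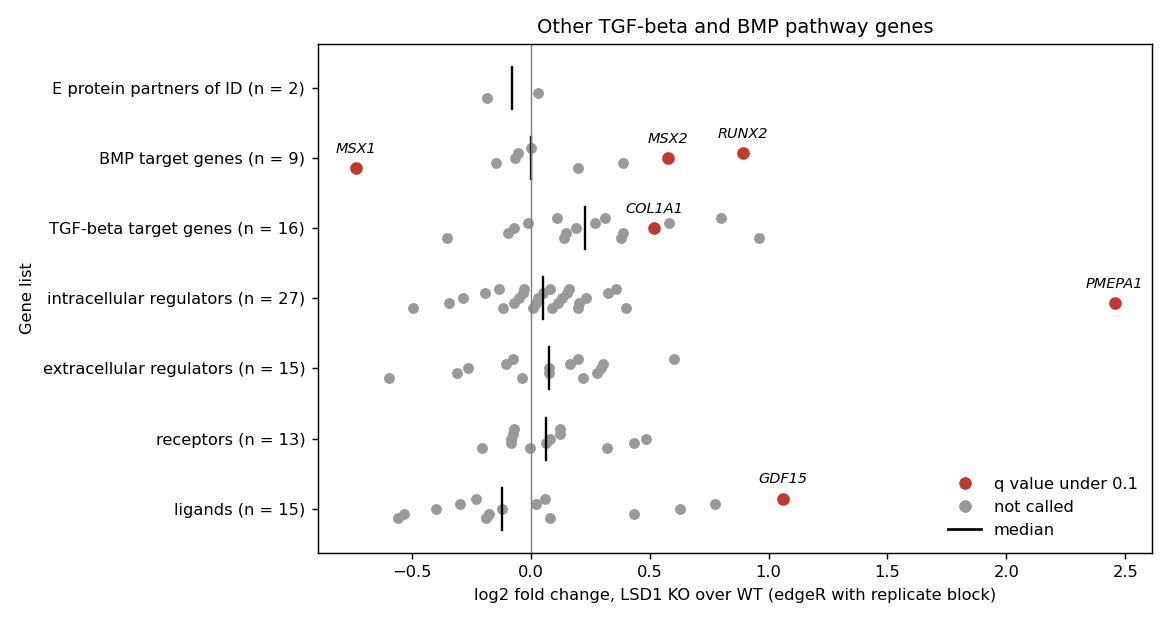
Log2 fold change of LSD1 KO over WT (horizontal axis, edgeR with the replicate number as a block) for the 97 pathway genes tested, in rows by role; red points have a q value under 0.1 and black lines are medians. PMEPA1 at 2.45, GDF15 at 1.06, RUNX2 at 0.89, MSX2 at 0.58 and COL1A1 at 0.52 lie to the right and MSX1 at -0.74 to the left.

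Among 16 known TGF-beta target genes, COL1A1, which encodes a chain of type I collagen, was called as higher in edgeR with the block and 0 were called as lower. COL1A1 (ENSG00000108821) was at 21.3, 22.7 and 24.7 CPM in WT replicates 1, 2 and 3 and at 30.2, 31.5 and 34.4 CPM in LSD1 KO replicates 1, 2 and 3, with no overlap and a difference of 0.52 ± 0.098 on the log2 scale (± standard error, edgeR q value 0.0628). It passed in 4 of the 16 other fits, with q values from 0.00325 to 1.00. The fibroblast markers COL3A1, LUM and PDGFRB summed to at most 0.384 CPM in any library. CDKN1A, a cell cycle inhibitor, was at 223.7 ± 5.66 CPM in WT and 286.4 ± 18.0 CPM in LSD1 KO, with no overlap (log2 fold change 0.39, q value 0.114 from edgeR with the block). The log2 fold change was above 0 for 12 of the 16, with a median of 0.23. It was above 0 for 58 of the 97 pathway genes and for 50.5% of all genes tested. Nothing is read from this share, since the list was drawn up with earlier results known. For 1 of the 16, not called in edgeR, every LSD1 KO library lay below every WT library.

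Of the 9 BMP target genes tested, 3 were called, in both directions. MSX1 (ENSG00000163132), a homeobox gene, fell from 67.2, 143.9 and 113.2 CPM in WT replicates 1, 2 and 3 to 46.9, 67.4 and 70.6 CPM in LSD1 KO replicates 1, 2 and 3, which is -0.74 ± 0.12 on the log2 scale (± standard error, edgeR q value 0.0434). Its groups overlapped, since WT replicate 1 lay below LSD1 KO replicates 2 and 3, and the LSD1 KO library was the lower in 3 of 3 pairs. MSX2 (ENSG00000120149), its paralog, rose from 11.5, 20.4 and 19.4 CPM to 16.3, 35.2 and 24.7 CPM (log2 fold change 0.58, standard error 0.12, q value 0.0915 from edgeR). RUNX2 (ENSG00000124813), a runt family factor that works with SMAD proteins in bone, rose from 24.5, 14.0 and 19.5 CPM to 42.9, 22.7 and 40.9 CPM (log2 fold change 0.89, standard error 0.11, q value 0.0181 from edgeR). The groups overlapped for MSX2 and RUNX2 as well. WT replicate 2 of MSX2 lay above LSD1 KO replicate 1, and WT replicate 1 of RUNX2 lay above LSD1 KO replicate 2. For both genes the LSD1 KO library was the higher in 3 of 3 pairs. MSX1, MSX2 and RUNX2 passed in 6, 4 and 6 of the 16 other fits. Their lowest q values there were 2.27e-09, 0.00161 and 1.51e-09, and the highest was 0.999993 for each. XIAP, an apoptosis inhibitor in the same list, was at 68.1 ± 13.1 CPM in WT and 63.6 ± 6.09 CPM in LSD1 KO. ID4, the remaining member of the ID family, had between 1 and 4 counts in each library and was not tested. Of the E proteins that ID proteins bind, TCF3 was at 209.9 ± 22.8 CPM in WT and 180.1 ± 11.8 CPM in LSD1 KO, and TCF12 at 73.6 ± 19.9 and 72.2 ± 11.4 CPM. The E-protein list held no called gene (0 of 2 in both edgeR fits, 0 with an unadjusted p under 0.05 and 0 with DESeq2).

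The genes whose values over the 6 libraries came closest to those of SMAD7 were HS3ST1, TMEM200A, TWIST1, IFI44 and GRHL2. Likeness was the root mean square difference of log2(CPM + 0.5) over the 6 libraries after each gene's mean was subtracted, among 14808 genes with a mean of at least 1 CPM. The distances were 0.45 for HS3ST1, 0.48 for TMEM200A, 0.48 for TWIST1, 0.50 for IFI44 and 0.51 for GRHL2. HS3ST1 encodes a heparan sulfate sulfotransferase, TWIST1 and GRHL2 encode transcription factors, and IFI44 is an interferon-induced gene. TWIST1 was at 1.14, 2.24 and 2.23 CPM in WT replicates 1, 2 and 3 and at 0.143, 1.397 and 0.307 CPM in LSD1 KO replicates 1, 2 and 3, an overlap between the groups that SMAD7 did not have. Of the other members, ID3 was the nearest to SMAD7, at 0.73 and in place 43, followed by ID2 at 0.93 and in place 437, and TGFBR2 was the farthest at 1.47. The 6 libraries fall into the groups compared, so genes that differ strongly between the groups are close by construction.

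**Figure D5:**
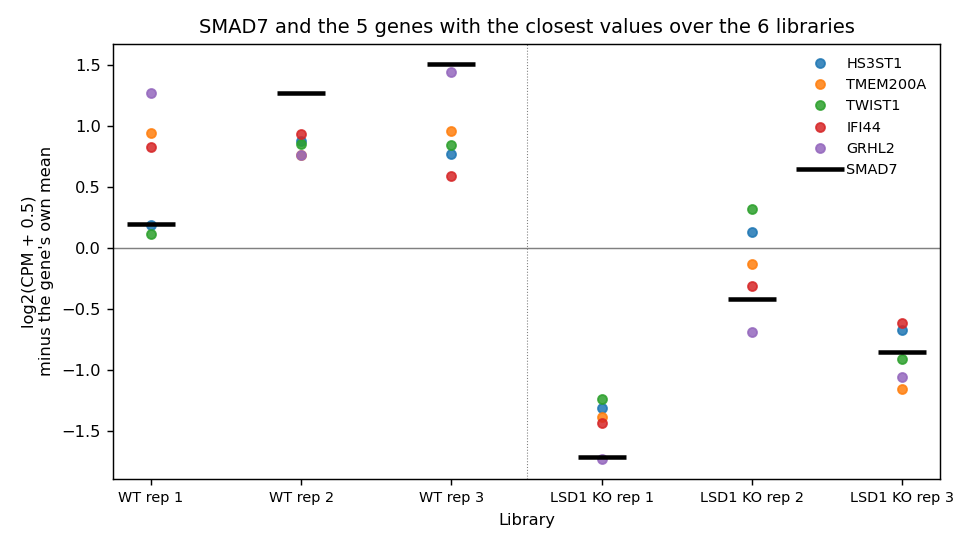
Values of SMAD7 (black bars) and of the 5 genes closest to it (coloured points) in each library (horizontal axis), as log2(CPM + 0.5) minus the mean of the gene (vertical axis). All 6 genes lie below their mean in LSD1 KO replicates 1 and 3, and LSD1 KO replicate 2 lies nearest to the WT libraries.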

How the data were processed

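RNA-seq was performed on 3 WT and 3 LSD1 KO HCT116 libraries. The authors trimmed the reads with Trimmomatic 0.39 and quantified them with Salmon (version 1.4.0 in the submitters' processing notes) against the GENCODE transcriptome on GRCh38. They deposited expected counts per gene in whole numbers, not scaled for library size, and the step from transcripts to genes is not given in the sources used here. The library kit as named does not mark strand.

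Symbols were matched for 58395 of 60240 genes. Counts were compared with edgeR 4.0.16 in R 4.3.3 (TMM, filterByExpr by group, quasi-likelihood test, Benjamini-Hochberg adjustment over all 17672 genes tested, q value under 0.1), without and with the replicate number as a block. Pairing by number rests on the correlated deviations of same-numbered libraries. DESeq2 1.42.0 was an alternative. Standard errors were derived from the F statistic. CPM used library totals. EdgeR without and with the block, its test between replicate numbers and DESeq2's Wald test without the block were run on simulated counts. The other steps were not.

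Members and lists were chosen with earlier results of these data known. The genes named from the lists were those called in edgeR without or with the block or in DESeq2, and the 2 most abundant of each list, of which 1 gene is not reported here. SMAD1, SMAD5, SMAD9, ID4, NEDD4L, ITCH and KLF10 were named after their values were seen. Promoters, gene positions and names came from RefSeq on GRCh38.p14, and all 10 members matched. Transcript lengths and shared sequences came from GENCODE v44lift37. Figures used matplotlib 3.10.9.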

Additional observations from a re-analysis of the deposited data

How the results depend on the processing

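The number of genes called between LSD1 KO and WT depended on the replicate block. Across all genes, edgeR called 1 without the block and 282 with it, DESeq2's Wald test called 95, and edgeR without a filter on low counts called 114. Settings chosen after seeing the data gave 295 with the replicate block and RLE factors, 1285 with the block and no filter, 143 with the block at a q value under 0.05, and 597 with DESeq2 and the block. Leaving out 1 library at a time without the block gave 1 to 26 genes, with 26 when LSD1 KO replicate 2 was left out. With the block, leaving out both libraries of 1 number gave 428, 1055 and 198 genes for numbers 1, 2 and 3.

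Among the 133 pathway genes, the count was 0 without the block, 6 with the replicate block, 3 with DESeq2's Wald test and 3 without a filter. It was 7 with the block and RLE factors, 20 with the block and no filter, 3 with the block at a q value under 0.05, and 11 with DESeq2 and the block. It stayed at 0 when 1 library was left out without the block, and it was 5, 16 and 4 with it when numbers 1, 2 and 3 were left out.

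The log2 fold change of SMAD7 was -2.75, and it ran from -3.56 (without LSD1 KO replicate 2) to -2.23 when 1 library was left out, and from -3.50 (without number 2) to -2.60 with the replicate block when 1 number was left out. Those of TGFBR2 and SMAD4 stayed positive and that of ID3 negative in each of the 16 alternatives, whereas BAMBI, SMAD2, SMAD3, SMAD6, ID1 and ID2 changed sign in at least 1. Between replicate numbers, leaving out 1 library gave 4525 to 8668 genes and 5 to 8 members, with 4525 and 4554 genes without WT or LSD1 KO replicate 3. Counts of 2 to 42 for SMAD7 limit the precision of its values in 4 of the 6 libraries.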

Other observations

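Under DESeq2 with the replicate block, a setting added after seeing the data that called 4.21% of the genes it tested, 11 pathway genes were called. BMP4 was among them and rose (q value 0.00087 there), as did the ubiquitin ligases SMURF2, NEDD4L and ITCH and the cell cycle inhibitor CDKN1A, while KLF10, a TGF-beta early response gene, fell. In edgeR with the block, none of these 6 genes passed a q value of 0.1.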
